A study of Mus musculus with 9 samples.

Results

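The genes described are Atf4, which encodes the transcription factor ATF4, and 9 genes known as its targets in amino acid and endoplasmic reticulum (ER) stress: Ddit3, Trib3, Chac1, Sesn2, Ddit4, Asns, Psat1, Phgdh and Slc3a2. They were taken by gene name and are 10 of the 21951 genes in the deposited count table. RNA was sequenced from BV2 cells, an immortalised line of microglia from mouse (the macrophages that live in brain tissue), in 3 groups of 3 libraries. Triol cells received 10 µM of the steroid 5α-androst-3β,5α,6β-triol for 30 min and then 10 Gy of X-rays, given once. Irradiated cells received the vehicle, 20% HP-β-CD, for 30 min and then the same radiation. Control cells received the vehicle and no radiation. All cells carried the genotype WT, no vehicle is named for the triol cells, and no group received triol without radiation. The treatment labels of triol replicates 2 and 3 name other positions of the last hydroxyl than their titles do, so the identity of the compound rests on the titles. The sources used here give no time between radiation and RNA extraction.

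ATF4 is the main effector of the integrated stress response. Kinases that sense amino acid shortage (GCN2), misfolded protein in the ER (PERK), double-stranded RNA (PKR) or haem shortage (HRI) phosphorylate the translation factor eIF2, which lowers general protein synthesis while translation of the Atf4 mRNA increases through its upstream open reading frames. ATF4 protein then raises transcription of genes for amino acid synthesis, amino acid uptake, redox balance, restraint of the growth kinase mTORC1 and, when stress persists, cell death. Because ATF4 is controlled largely at translation, its targets are commonly read beside its own mRNA, and ATF4 protein was not measured here.

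ATF4 binds, with a C/EBP partner, a composite site with the core TGATGNAA, called the C/EBP-ATF response element. The 300 bases around each RefSeq start site (250 before and 50 after, build GRCm38.p6) were searched for it on both strands, as TGATGNAA or TTNCATCA. It occurred in 3 of the 11 windows of the 10 genes (Psat1 has 2 windows) and in 3.97% of all 32851 mouse windows. The 3 stretches are shown because their genes, described below, did not move alike. Each is written 5′ to 3′ on the strand of its gene with the match in capitals, on the given strand of chr2:152344028-152344057 (minus) for Trib3, chr6:7693195-7693262 (minus) for Asns and chr2:119351019-119351086 (plus) for Chac1.
Trib3: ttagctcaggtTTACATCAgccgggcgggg
Asns: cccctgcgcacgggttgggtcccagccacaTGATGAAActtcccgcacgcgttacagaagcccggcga
Chac1: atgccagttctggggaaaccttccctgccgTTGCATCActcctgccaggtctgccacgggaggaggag
The Asns match lay at -23 to -16 from the start site and reads along the gene's own strand. Those of Trib3, at 15 to 22 after the start, and Chac1, at -193 to -186, read on the opposite strand. The longer ER stress element, which ATF6 binds, was in 0 of the 11 windows and in 0.119% of all windows. Such a match is a run of letters and not evidence of binding, and sites outside these windows were not looked for. The RefSeq start sites differ in part from the gene spans given below, which come from GENCODE. The Trib3 match lies just before the span of its gene. The windows of Slc3a2 (chr19:8713848-8714147) and Psat1 (chr19:15925010-15925309 and chr19:15924573-15924872) lie well inside the spans of their genes.

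The libraries held 17230866 to 18944051 counts in triol cells, 13879062 to 15192203 in irradiated cells and 14118475 to 17705424 in control cells. Values are given as CPM, the counts of a gene per 1000000 counts of its library, scaled by edgeR's TMM factors, with tests by edgeR's quasi-likelihood F test, and p-values adjusted over all 11295 genes with enough counts to be tested; a gene is called at an adjusted p under 0.05. All 10 genes were among those tested. On the first principal component, with 64.4% of the variance, control libraries lay apart from all irradiated ones. Nothing says that replicates were separate cultures, so p-values measure the spread between these libraries. Microglial marker genes (10, none at 0, C1qa at no more than 6 counts in any library) summed to 1400 to 1440 RPM in triol, 1390 to 1440 in irradiated and 1850 to 1920 in control libraries. Hepatocyte markers summed to 9.61 to 9.96 RPM in triol libraries, against 0.922 to 2.9 in irradiated and 1.09 to 2.82 in control libraries. Neuron markers summed to 0.696 to 1.32 RPM in triol, 0.263 to 0.36 in irradiated and 0.0708 to 0.621 in control libraries. Fibroblast markers summed to 0.744 to 1.37 RPM in triol, 0.288 to 0.345 in irradiated and 0 to 0.0643 in control libraries. No neuron or fibroblast marker had enough counts to be tested. Oligodendrocyte marker sums overlapped between all groups. Astrocyte markers, with Aqp4 at 0, summed to 1.51 to 2.17 RPM in triol, 1.97 to 2.09 in irradiated and 0.321 to 0.85 in control libraries. Of these 5 markers only 1, Slc1a2, had enough counts to be tested. Gfap, Aldh1l1 and Slc1a3 had at most 12, 2 and 5 counts in any library. The part of these markers in the results was not tested.

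After 10 Gy the Atf4 targets did not move together. Of the 10 genes, 4 rose in irradiated against control cells (Ddit3, Trib3, Slc3a2 and Phgdh), 3 fell (Atf4, Psat1 and Asns) and 3 were not called (Sesn2, Chac1 and Ddit4). Every change was small, between -0.18 and 0.38 on the log2 scale. Over all genes tested, 44.3% were called, 22.1% up and 22.2% down, so a split between both directions was also the pattern of the whole transcriptome. The median absolute log2 change was 0.165 in the 10 genes and 0.154 over all genes. Irradiated and control libraries did not overlap for 6 of the 10 genes, against 50.7% of all genes. With scaling by the upper quartile or by the total count, 1 gene (Psat1) in place of 3 was called down and the same number, 4, was called up. The rise of Trib3, at an adjusted p of 0.0461 by edgeR, lost its call in 11 of 16 alternatives.

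**Figure D1:**
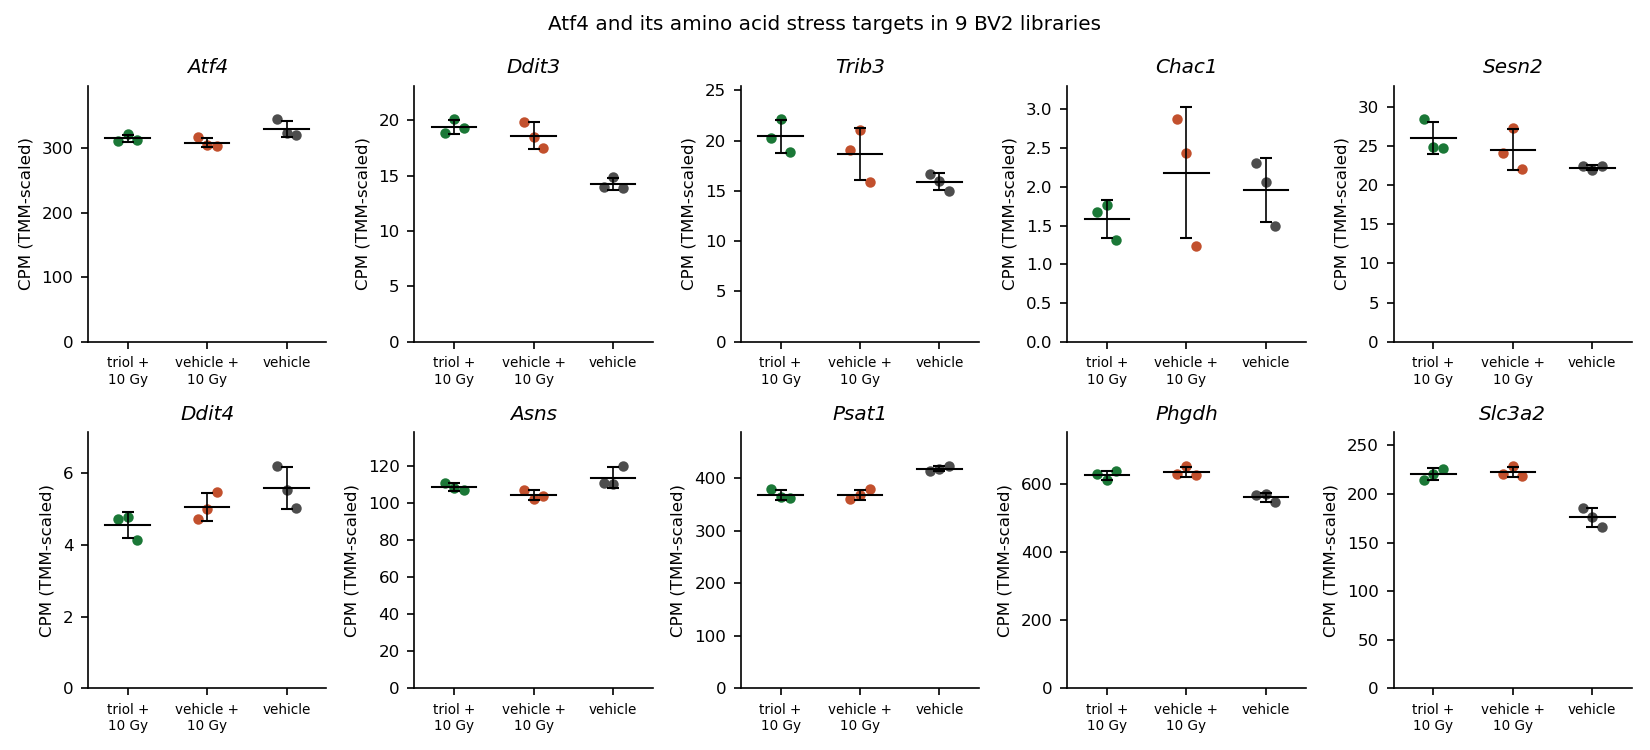
TMM-scaled CPM of Atf4 and its 9 targets on axes that start at 0. Points are single libraries, the long bar is the group mean and the error bars are 1 SD (n = 3); Ddit3, Slc3a2 and Phgdh libraries lie higher in both irradiated groups than in controls, and Psat1 libraries lie lower.

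Atf4 itself (GRCm38 chr15:80255184-80257541, plus strand) had 311, 322 and 313 CPM in triol libraries, 317, 306 and 304 CPM in irradiated libraries, and 345, 324 and 321 CPM in control libraries. Irradiated libraries all lay below the controls, while triol libraries overlapped them by a narrow margin. The log2 change was -0.10 in irradiated against control cells (SE 0.03, adjusted p = 0.016 by edgeR), and -0.07 in triol against control cells (SE 0.03, adjusted p = 0.092 by edgeR), which was not a call. The fall in irradiated cells, a fold of 0.936, kept its sign but not its call with upper quartile scaling (-0.07, adjusted p = 0.0958), total count scaling (-0.06, adjusted p = 0.129), without control replicate 1 (-0.07, adjusted p = 0.121) and without irradiated replicate 3 (-0.08, adjusted p = 0.0628), all by edgeR. In triol against control cells Atf4 was called down without control replicate 3 (-0.10, adjusted p = 0.0208 by edgeR). As in any bulk sample, fewer cells that express a gene and less RNA per cell cannot be told apart.

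Ddit3, which encodes the pro-apoptotic transcription factor CHOP, had the largest fitted change of the 10 genes in irradiated cells. It had 18.9, 20.1 and 19.3 CPM in triol libraries, 19.9, 18.5 and 17.5 CPM in irradiated libraries, and 14, 14.9 and 13.9 CPM in control libraries. Every library of both irradiated groups stood above every control library. Ddit3 rose 1.3-fold in irradiated against control cells (log2 0.38, SE 0.09, adjusted p = 0.000415 by edgeR) and by 0.44 on the log2 scale in triol against control cells (SE 0.08, adjusted p = 3.87e-05 by edgeR). The gene lies at chr10:127290774-127296288 on the plus strand. The table holds a second row with this symbol, ENSMUSG00000116429, whose 105 exonic bases all lie within Ddit3 and which had 0 counts in all 9 libraries. Of the exonic bases of Ddit3, 4.0% are shared with Mars on the other strand, whose mRNA fell in irradiated cells.

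Trib3 encodes a pseudokinase that is induced by ATF4 and CHOP and that in turn restrains ATF4 activity, and it lies at chr2:152337422-152344032 on the minus strand. It had 20.2, 22.1 and 18.9 CPM in triol libraries, 19.1, 21 and 15.9 CPM in irradiated libraries, and 16.7, 16 and 15 CPM in control libraries. Triol libraries all stood above the controls, whereas 1 irradiated library lay within the control range. Trib3 rose by 0.36 on the log2 scale in triol against control cells (SE 0.09, adjusted p = 0.00123 by edgeR), a call that held in all 16 alternatives run. In irradiated against control cells its log2 change of 0.23 (SE 0.09) was called at an adjusted p of 0.0461 by edgeR, and 11 of the 16 alternatives lost that call. The lowest value was 0.13 without irradiated replicate 2 (adjusted p = 0.33 by edgeR).

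Chac1 encodes an enzyme that degrades glutathione and is among the most inducible targets of the ATF4 and CHOP arm; it lies at chr2:119351229-119354381 on the plus strand. It had the lowest counts of the 10 genes. They were 29, 31 and 25 in triol libraries, 42, 34 and 19 in irradiated libraries, and 32, 36 and 23 in control libraries. The groups overlapped throughout. The log2 difference between irradiated and control cells was 0.15, with a 95% interval of -0.40 to 0.70, and it turned to -0.01 without control replicate 3 and to -0.11 without irradiated replicate 1. The depth allows changes of Chac1 as large as those of Ddit3 in either direction.

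Sesn2 and Ddit4 encode inhibitors of mTORC1, SESN2 as a leucine sensor that acts on the GATOR complexes and DDIT4 (REDD1) by way of the TSC complex. Sesn2 (chr4:132492032-132510501, minus strand) had 28.4, 24.9 and 24.7 CPM in triol libraries, 24.1, 27.3 and 22.1 CPM in irradiated libraries, and 22.4, 21.9 and 22.4 CPM in control libraries. Triol libraries stood above the controls, and irradiated libraries reached into the control range. The log2 change of Sesn2 was 0.22 in triol against control cells (SE 0.08, adjusted p = 0.0193 by edgeR) and 0.13 in irradiated against control cells (SE 0.08, adjusted p = 0.184 by edgeR). Only the change in triol cells was a call, and it was lost without triol replicate 1 (0.15, adjusted p = 0.173) and without control replicate 2 (0.21, adjusted p = 0.0701). Ddit4 (chr10:59949669-59951834, minus strand) had 4.74, 4.78 and 4.15 CPM in triol libraries, 4.72, 5 and 5.49 CPM in irradiated libraries, and 6.21, 5.55 and 5.02 CPM in control libraries. Its triol libraries all lay below the controls, yet the log2 difference of -0.29 (SE 0.15, adjusted p = 0.114 by edgeR) did not pass the threshold, and neither did -0.14 in irradiated against control cells (SE 0.15, adjusted p = 0.502 by edgeR).

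The biosynthetic genes split. Asns, which encodes asparagine synthetase and lies at chr6:7675169-7693254 on the minus strand, had 111, 108 and 107 CPM in triol libraries, 107, 102 and 104 CPM in irradiated libraries, and 111, 110 and 120 CPM in control libraries. Irradiated libraries lay below the controls and triol libraries reached into the control range. Asns fell by 0.12 on the log2 scale in irradiated against control cells (SE 0.04, adjusted p = 0.0169 by edgeR), with the same sign but no call under upper quartile scaling (-0.09, adjusted p = 0.0686), total count scaling (-0.09, adjusted p = 0.0918), without control replicate 3 (-0.09, adjusted p = 0.106) and without irradiated replicate 2 (-0.11, adjusted p = 0.0541). In triol against control cells the difference was -0.06 (SE 0.04, adjusted p = 0.248 by edgeR).

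Phgdh and Psat1 encode successive enzymes of serine synthesis from the glycolytic intermediate 3-phosphoglycerate, and they changed in opposite directions. Phgdh (chr3:98313170-98339990, minus strand) had 630, 612 and 638 CPM in triol libraries, 630, 654 and 627 CPM in irradiated libraries, and 569, 571 and 547 CPM in control libraries. Psat1 (chr19:15904678-15947337, minus strand) had 380, 364 and 363 CPM in triol libraries, 360, 369 and 379 CPM in irradiated libraries, and 414, 418 and 424 CPM in control libraries. In both genes the irradiated groups were apart from the controls with no overlap, Phgdh above them and Psat1 below. Phgdh rose by 0.18 in irradiated against control cells (SE 0.03, adjusted p = 3.4e-06 by edgeR) and by 0.16 in triol against control cells (SE 0.03, adjusted p = 3.13e-05 by edgeR), on the log2 scale. Psat1 fell by 0.18 in irradiated against control cells (SE 0.03, adjusted p = 5.74e-06 by edgeR) and by 0.18 in triol against control cells (SE 0.03, adjusted p = 4.88e-06 by edgeR). Both calls held in all 16 alternatives in both comparisons. Phgdh has 9 processed pseudogenes at least 95% identical to it over 277 to 1608 bases, and how reads that map to several places were counted is not given, so its counts are uncertain; no other gene of the 10 has such a copy. Psph, which encodes the phosphatase of the last step and was singled out after its values were seen, was not called in either comparison (log2 0.13, adjusted p = 0.34 in irradiated cells and 0.23, adjusted p = 0.0684 in triol cells, by edgeR). Psph was called up in triol against control cells under upper quartile scaling (0.25, adjusted p = 0.0461) and total count scaling (0.26, adjusted p = 0.0387), by edgeR.

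Slc3a2 encodes the heavy chain CD98hc, which carries the light chains LAT1 (Slc7a5, large neutral amino acids) and xCT (Slc7a11, cystine) to the plasma membrane, and it lies at chr19:8706882-8723369 on the minus strand. It had 214, 221 and 226 CPM in triol libraries, 221, 229 and 219 CPM in irradiated libraries, and 186, 176 and 166 CPM in control libraries. Both irradiated groups lay wholly above the controls. Slc3a2 rose 1.26-fold in irradiated against control cells (log2 0.34, SE 0.04, adjusted p = 6.5e-10 by edgeR) and by 0.32 on the log2 scale in triol against control cells (SE 0.04, adjusted p = 1.44e-09 by edgeR). Its light chain gene Slc7a11 rose in irradiated cells as well, with 495, 508 and 534 CPM in triol libraries, 505, 493 and 488 CPM in irradiated libraries, and 369, 325 and 359 CPM in control libraries (log2 0.50, SE 0.04, adjusted p = 5.51e-14 by edgeR for irradiated against control). Slc7a5 rose less, with 123, 124 and 124 CPM in triol libraries, 118, 121 and 127 CPM in irradiated libraries, and 112, 110 and 106 CPM in control libraries (log2 0.16, SE 0.04, adjusted p = 0.00151 by edgeR for irradiated against control). All 3 transporter genes thus stood higher in every irradiated library than in any control library.

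**Figure D2:**
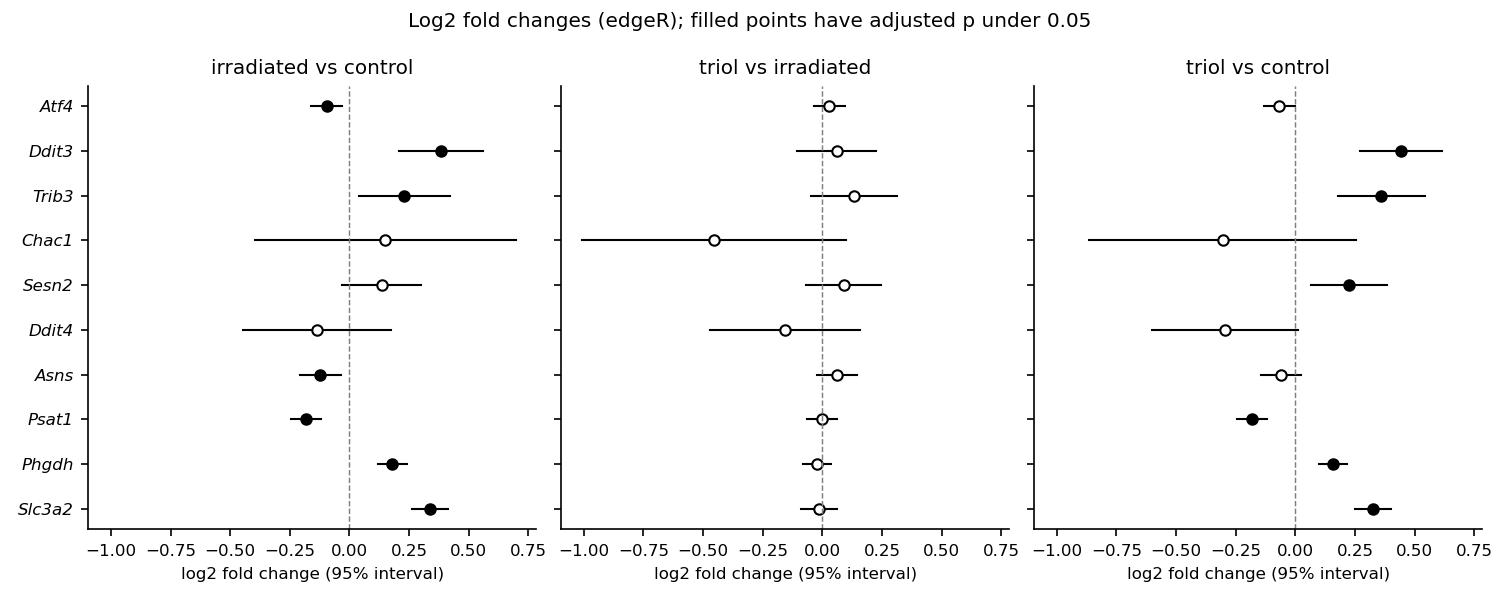
Log2 fold change of each gene (x axis) with its 95% interval in irradiated against control, triol against irradiated and triol against control cells; filled points have an adjusted p under 0.05 by edgeR. Called genes lie on both sides of 0 in the comparisons with controls, and 0 of 10 points are filled for triol against irradiated cells.

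Triol before radiation changed none of these 10 mRNAs detectably relative to radiation with vehicle. Of the 10 genes 0 were called by edgeR, DESeq2 or limma-voom, where 0.106% of all genes (12 of 11295; 0.0974% up and 0.00885% down) were called by edgeR, so a count of 0 is also what that background gives. The calls over all genes ranged between 6 (without triol replicate 2) and 19 (without control replicate 3) with 1 library left out. Among the 12 calls were 3 of the 4 hepatocyte markers tested. At an unadjusted p under 0.05, 0 of the 10 and 7.66% of all genes passed in edgeR. Adjusted p-values ran from 0.74 (Chac1) to 0.998 (Psat1). The 95% intervals of the log2 difference bound what the libraries allow: -0.04 to 0.09 for Atf4, -0.06 to 0.06 for Psat1, -0.08 to 0.04 for Phgdh, -0.09 to 0.06 for Slc3a2 and -0.02 to 0.15 for Asns. The intervals were wider for the scarcer mRNAs, at -0.11 to 0.23 for Ddit3, -0.05 to 0.31 for Trib3, -0.07 to 0.25 for Sesn2, -0.47 to 0.16 for Ddit4 and -1.01 to 0.10 for Chac1. Triol and irradiated libraries did not overlap for 1 gene, Asns, whose lowest triol library exceeded its highest irradiated one by a narrow margin; 13.2% of all genes were so separated. The median log2 difference was 0.01 over the 10 genes and 0.00 over all genes.

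Triol against control cells gave 5 genes up (Ddit3, Trib3, Sesn2, Slc3a2 and Phgdh), 1 down (Psat1) and 4 not called, where 43.3% of all genes were called, 21.5% up and 21.7% down. Without control replicate 3, 2 genes were called down, Psat1 and Atf4. In 7 of the 10 genes triol and control libraries had no overlap, against 51.1% of all genes. This comparison and that of irradiated with control cells share the control libraries, so their likeness is not independent evidence. Sesn2 was called in triol against control cells and not in irradiated against control cells, and the reverse held for Atf4 and Asns. Since none of these differed by call between triol and irradiated cells, a difference between the irradiated groups is not shown for them.

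Per length of merged exons, as RPKM (CPM divided by the length in kilobases), the 10 mRNAs kept 1 order in all groups: Phgdh, Atf4, Psat1, Slc3a2, Asns, Ddit3, Trib3, Sesn2, Ddit4 and Chac1, from high to low. Phgdh, at the top, averaged 252 ± 5.5 RPKM in triol, 256 ± 6.05 RPKM in irradiated and 226 ± 5.45 RPKM in control libraries (SD, n = 3 each). Atf4 averaged 134 ± 2.39 RPKM in triol, 131 ± 3.01 RPKM in irradiated and 140 ± 5.53 RPKM in control libraries. Ddit3 averaged 11.3 ± 0.356 RPKM in triol, 10.9 ± 0.7 RPKM in irradiated and 8.32 ± 0.321 RPKM in control libraries. Chac1, at the bottom, averaged 0.968 ± 0.146 RPKM in triol, 1.33 ± 0.515 RPKM in irradiated and 1.2 ± 0.254 RPKM in control libraries. The synthesis and transport genes, with Atf4 itself, therefore formed an abundant upper tier. Ddit3, Trib3, Sesn2, Ddit4 and Chac1 formed a scarce lower tier. With merged exons, the only neighbours in this order whose libraries overlapped were Trib3 and Sesn2 in irradiated cells. Dividing by the longest transcript kept the order but raised Ddit3 1.77-fold and Psat1 1.63-fold, to 14.7 ± 0.568 and 160 ± 2.04 RPKM in control libraries. Then Atf4 (164 ± 6.46 RPKM) also overlapped Psat1, and Slc3a2 (62.7 ± 3.58 RPKM) overlapped Asns (56.3 ± 2.6 RPKM), in control libraries.

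Ratios of counts of 2 genes within a library do not depend on scaling between libraries and are given as descriptions, without a test. Psat1 over Phgdh was 0.603, 0.596 and 0.569 in triol libraries, 0.572, 0.563 and 0.604 in irradiated libraries, and 0.727, 0.733 and 0.776 in control libraries. This ratio carries the uncertainty of the Phgdh counts described above. Ddit3 over Atf4 was 0.0608, 0.0625 and 0.0615 in triol libraries, 0.0627, 0.0604 and 0.0576 in irradiated libraries, and 0.0405, 0.0459 and 0.0432 in control libraries. In both ratios the 6 irradiated libraries were apart from the 3 controls and mixed among themselves. Asns over Atf4, by contrast, averaged 0.346 in triol, 0.338 in irradiated and 0.344 in control libraries. Slc3a2 over Slc7a11 ranged over 0.423 to 0.436 in triol, 0.437 to 0.464 in irradiated and 0.463 to 0.544 in control libraries, with triol libraries wholly below the controls and irradiated libraries touching the control range. Sesn2 over its relative Sesn1 averaged 0.669 ± 0.0617 in triol, 0.679 ± 0.116 in irradiated and 0.479 ± 0.011 in control libraries (SD, n = 3 each).

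**Figure D3:**
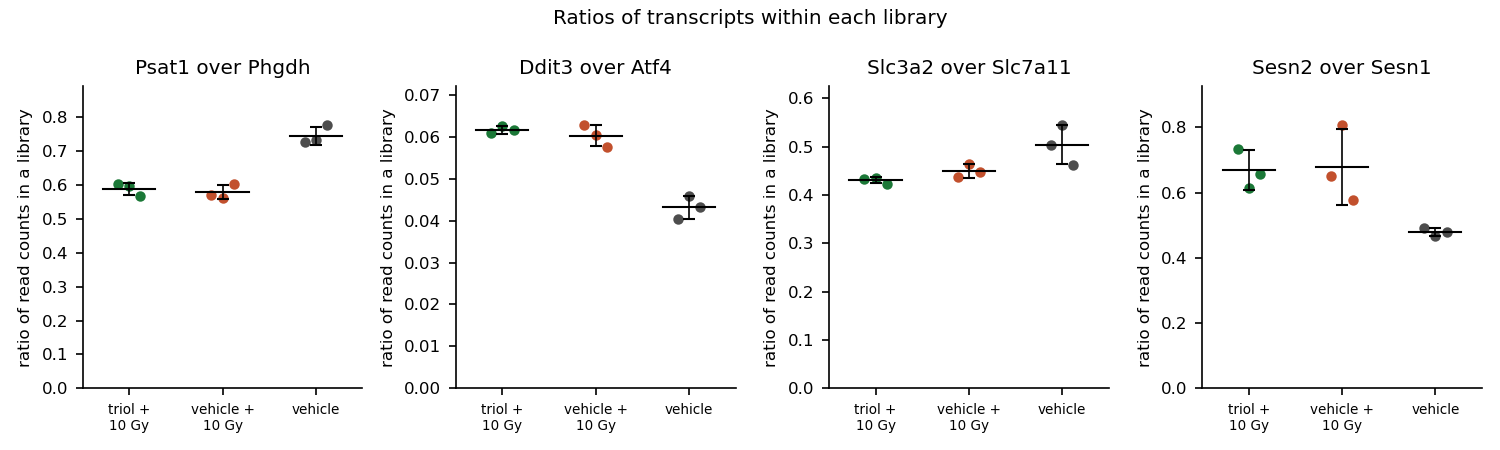
Ratio of read counts of 2 genes within each library (y axis, from 0), with points for libraries, long bars for means and error bars for 1 SD (n = 3). Psat1 over Phgdh lies at 0.563 to 0.604 in the 6 irradiated libraries against 0.727 to 0.776 in controls, and Ddit3 over Atf4 lies above every control library in all 6. Phgdh counts are uncertain because of its processed pseudogenes.

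The kinases upstream of ATF4 did not change as a block. Among 14 genes for eIF2, its kinases and their regulators, its phosphatase subunits and its exchange factor eIF2B, 7 rose and 3 fell in irradiated against control cells, where 22.1% of all genes rose and 22.2% fell. The median log2 change was 0.13, against 0.01 over all genes, and 4 in place of 7 rose without control replicate 2. Besides Eif2ak2, the genes that rose were Eif2s1, Impact and the eIF2B genes Eif2b1, Eif2b3, Eif2b4 and Eif2b5, with log2 changes of 0.16 to 0.22. The eIF2B gene Eif2b2 was not called (log2 -0.06, adjusted p = 0.374 by edgeR). Those that fell were Eif2ak4, Eif2ak3 and the phosphatase subunit gene Ppp1r15b (log2 -0.16). Eif2ak2, which encodes PKR and is also an interferon-stimulated gene, had 171, 175 and 160 CPM in triol libraries, 167, 151 and 154 CPM in irradiated libraries, and 105, 101 and 101 CPM in control libraries. It stood far above the controls in every irradiated library (log2 0.62, SE 0.04, adjusted p = 7.35e-16 by edgeR for irradiated against control). Eif2ak4, which encodes the amino acid sensor GCN2, had 117, 118 and 123 CPM in triol libraries, 115, 118 and 113 CPM in irradiated libraries, and 139, 140 and 145 CPM in control libraries. It stood below them in every irradiated library (log2 -0.29, SE 0.04, adjusted p = 6.94e-08 by edgeR). Eif2ak3, which encodes PERK, averaged 35.4 ± 2.92 CPM in irradiated and 40.9 ± 1.71 CPM in control libraries (log2 -0.21, SE 0.07, adjusted p = 0.00836 by edgeR), a call lost without control replicate 2 (-0.18, adjusted p = 0.0578) or without irradiated replicate 1 (-0.15, adjusted p = 0.0864). Eif2ak1, which encodes HRI, was not called (log2 -0.06, adjusted p = 0.502 by edgeR). Ppp1r15a, which encodes the stress-induced eIF2 phosphatase subunit GADD34 and is itself an ATF4 target, was not called in irradiated cells (log2 0.09, adjusted p = 0.197 by edgeR).

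Of 11 genes for bZIP partners and co-regulators of ATF4, 0 rose and 3 fell in irradiated against control cells, where 22.1% of all genes rose and 22.2% fell. Atf3, a stress-induced repressor downstream of ATF4, had 145, 148 and 145 CPM in triol libraries, 140, 147 and 134 CPM in irradiated libraries, and 155, 163 and 158 CPM in control libraries. Cebpb, a C/EBP partner of ATF4, had 71.1, 63.6 and 76.5 CPM in triol libraries, 70, 74.7 and 74 CPM in irradiated libraries, and 94.7, 94 and 79.4 CPM in control libraries. In both genes all irradiated libraries lay below the controls, with log2 changes of -0.18 for Atf3 (SE 0.04, adjusted p = 0.000199 by edgeR) and -0.29 for Cebpb (SE 0.07, adjusted p = 0.000766 by edgeR). Trib2, a relative of Trib3, was the third (log2 -0.50, SE 0.21, adjusted p = 0.0486 by edgeR), and 11 of 16 alternatives lost that call.

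Other genes of amino acid supply were called in both directions, and 22.1% of all genes were called up and 22.2% down. Of 9 transporter genes tested, 4 rose and 1 fell in irradiated against control cells, with Slc1a4, a neutral amino acid transporter, at 19.1, 18.8 and 18.2 CPM in irradiated libraries against 12.8, 12.2 and 14.1 CPM in control libraries (log2 0.52, SE 0.09, adjusted p = 7.93e-06 by edgeR). Of 11 serine, one-carbon, proline and transsulfuration enzyme genes, 2 rose and 5 fell, and the folate enzymes among them split. The cytosolic Shmt1 rose by 0.40 (SE 0.05, adjusted p = 7.38e-09 by edgeR) while the mitochondrial folate enzyme genes Mthfd2 and Aldh1l2, both known ATF4 targets, fell by 0.21 (SE 0.05, adjusted p = 0.000564 by edgeR) and by 0.35 (SE 0.07, adjusted p = 0.000124 by edgeR), on the log2 scale. The cytosolic Mthfd1 also rose (log2 0.13, adjusted p = 0.00445 by edgeR) and the mitochondrial Shmt2 fell (log2 -0.16, adjusted p = 0.000152 by edgeR). The Mthfd1 call was lost without control replicate 2 (log2 0.097, adjusted p = 0.0583 by edgeR). However, the mitochondrial Mthfd1l (log2 0) and, from another list, Mthfd2l (log2 0.20, adjusted p = 0.214 by edgeR) were not called. The split therefore did not follow the compartment throughout. Of 13 cytosolic aminoacyl-tRNA synthetase genes 1 rose, 3 fell and 9 were not called, with Mars at 102, 102 and 98.9 CPM in irradiated libraries against 116, 121 and 120 CPM in control libraries (log2 -0.24, SE 0.04, adjusted p = 6.88e-06 by edgeR). The median log2 change was 0.09 for the transporters, -0.14 for the enzymes and 0.01 for the synthetases. Without control replicate 2, 1 enzyme gene in place of 2 was called up, and the synthetase genes called up were 0 without control replicate 3, 2 without irradiated replicate 1 and 3 under upper quartile or total count scaling.

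Of 12 other ATF4-dependent genes tested, 4 rose and 2 fell in irradiated against control cells, where 44.3% of all genes were called. Stc2, which encodes the secreted glycoprotein stanniocalcin 2, had 6.7, 4.27 and 5.04 CPM in triol libraries, 4.86, 5.57 and 4.97 CPM in irradiated libraries, and 2.89, 3.03 and 3.13 CPM in control libraries. All irradiated libraries exceeded the controls (log2 0.76, SE 0.18, adjusted p = 0.000753 by edgeR). Herpud1, a component of ER-associated degradation, had 57.2, 62 and 55 CPM in irradiated libraries against 79.5, 85.4 and 78.1 CPM in control libraries (log2 -0.48, SE 0.05, adjusted p = 3.11e-10 by edgeR), and the stress cytokine gene Gdf15 fell by 0.36 on the log2 scale (SE 0.10, adjusted p = 0.0018 by edgeR). Of 16 genes for sestrins, relatives of REDD1 and the GATOR, TSC and mTORC1 proteins, 2 rose and 3 fell, beside the same 44.3% of all genes, with 1 in place of 2 called up when any library other than triol replicate 3 was left out. Sesn1 fell, with 36.9, 33.8 and 38.2 CPM in irradiated libraries against 45.8, 46.9 and 46.8 CPM in control libraries (log2 -0.36, SE 0.06, adjusted p = 9.15e-06 by edgeR).

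Of 12 genes controlled mainly by IRE1 and XBP1 or by ATF6, 0 rose and 11 fell in irradiated against control cells, where 22.2% of all genes fell. These targets of the other arms of the unfolded protein response had a median log2 change of -0.28, against 0.01 over all genes. This list, like the others, was chosen with earlier results of these data known, so its count beside all genes is a description only. Edem1, which helps to clear misfolded glycoproteins, had 567, 568 and 546 CPM in triol libraries, 526, 539 and 541 CPM in irradiated libraries, and 777, 775 and 751 CPM in control libraries (log2 -0.52, SE 0.03, adjusted p = 1.35e-18 by edgeR for irradiated against control). Sdf2l1, an ER chaperone cofactor, averaged 31.8 ± 2.18 CPM in irradiated and 46.5 ± 5.11 CPM in control libraries (log2 -0.55, SE 0.07, adjusted p = 5.92e-08 by edgeR). Ddit3, which that response can also raise, stood higher in the same irradiated libraries.

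**Figure D4:**
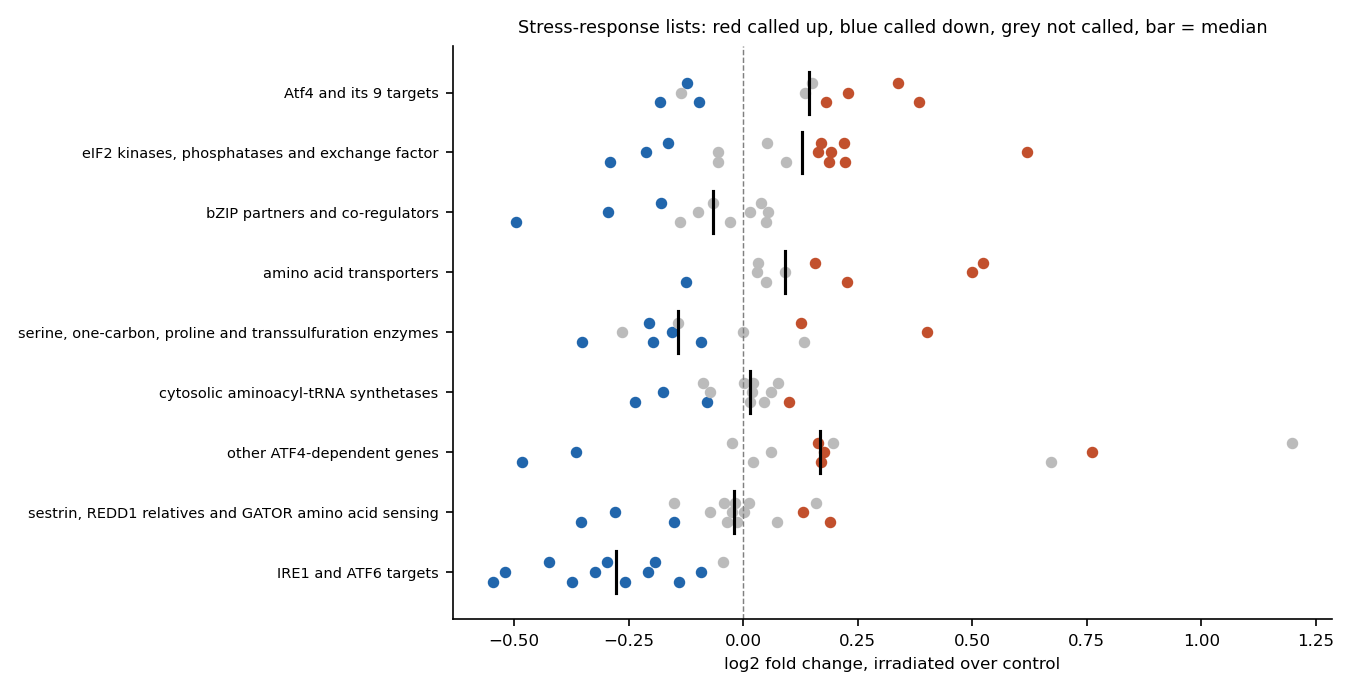
Log2 fold change in irradiated over control cells (x axis) for the tested genes of each list, 1 point a gene, with a bar at the list's median; red points are called up, blue down and grey not called by edgeR. The 10 genes at the top spread over both sides of 0, while the IRE1 and ATF6 list lies below 0 with 11 of 12 called down.

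Triol against irradiated cells gave 0 calls in all 8 lists, with medians between -0.02 and 0.06 on the log2 scale; edgeR found 0 to 2 genes a list at an unadjusted p under 0.05. Against control cells, where 21.5% of all genes were called up and 21.7% down, the triol group had 7 up and 3 down among the 14 eIF2 genes, 0 up and 3 down among the 11 bZIP genes, and 4 up and 0 down among the 9 transporters. It had 2 up and 5 down among the 11 enzymes, 3 up and 1 down among the 13 synthetases, and 5 up and 2 down among the 12 other ATF4-dependent genes. The 16 sestrin, GATOR and mTORC1 genes gave 1 up and 4 down, and the 12 IRE1 and ATF6 targets gave 0 up and 10 down. Counts of calls that moved by over 1.5 times with 1 library left out were the following. The transporter list had 1 down, and the synthetase list 2 down, without control replicate 2 or 3, irradiated replicate 1 or 2, or triol replicate 3. The synthetase list had 1 up without control replicate 2 or 3 or triol replicate 1 or 2, and the enzyme list 1 up without control replicate 2 or triol replicate 1. The other ATF4-dependent genes had 1 down without control replicate 1 or triol replicate 1, and the sestrin list had 0 up when any library other than triol replicate 2 or 3 was left out. Eif2ak2 (log2 0.72), Slc7a11 (0.55), Slc1a4 (0.65), Stc2 (0.82) and Shmt1 (0.34) were called up in triol against control cells, and Eif2ak4 (-0.25), Cebpb (-0.34), Herpud1 (-0.46), Edem1 (-0.45) and Sdf2l1 (-0.52) down, by edgeR. Ppp1r15a was called up in triol against control cells only by a narrow margin (log2 0.15, adjusted p = 0.0333 by edgeR), and 7 of 16 alternatives lost it.

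The 5 genes whose profile over the 9 libraries was closest to that of Atf4 were not among the 9 targets listed here. Likeness was the root mean square difference of log2 CPM, each gene centred on its own mean, among 8694 other genes with a mean CPM of at least 10. The nearest 5 were Wipf1 (0.0182), 2310022A10Rik (0.0184), Adss (0.0221), Scoc (0.0221) and Slc44a2 (0.0231). Of the targets Asns came closest, at rank 786 (0.0572), followed by Psat1 at rank 1943, while Slc3a2, Trib3 and Ddit3 ranked 7958, 8081 and 8316, with Ddit3 at 0.239. The measure favours genes that vary little, as Atf4 does, and Chac1 and Ddit4 were below the minimum level.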

How the data were processed

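The authors deposited a table of read counts per gene for 9 libraries of BV2 total RNA, prepared with the NEBNext Ultra RNA kit per the labels' protocols. The submitters' processing notes name fastp 0.18.0, FastQC, STAR 2.7.1a, featureCounts, Subread 1.6.3 and build GRCm38. No source used here gives the strand setting or the treatment of multiply mapped reads. All 21951 genes were matched by ID to GENCODE M21 for names, positions and exon lengths. The counts were filtered with filterByExpr (11295 genes kept), TMM-scaled and fitted in edgeR 4.0.16 (R 4.3.3) as 1 model over 9 libraries, with Benjamini-Hochberg adjustment. DESeq2 1.42.0, limma-voom 3.58.1, other scalings, no filter, 2 groups at a time, a replicate block and leaving out each library were alternatives, and the code was tested on simulated data. Promoters are from RefSeq.

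The 10 genes were set by name. They and the pathway lists were chosen with earlier results of these data known. Genes named from a list are, per comparison, at most 2 called up and 2 called down with the largest change, plus Eif2ak1 to Eif2ak4, Ppp1r15a, Atf3, Cebpb, Slc7a11 and Slc7a5, and the 5 genes closest to Atf4 in profile. Outside this rule, Psph, Shmt2, Mthfd1l, Mthfd2l and further genes of the eIF2 list were named after their values were seen. RPKM used TMM-scaled totals and merged exon length. The biological coefficient of variation was 3.18%. Intervals and p-values cover the spread between these libraries.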

Additional observations from a re-analysis of the deposited data

How the results depend on the processing

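Ddit3, Slc3a2, Psat1 and Phgdh kept their calls against control cells in all 16 alternatives, with log2 changes in irradiated cells of 0.33 to 0.43 for Ddit3, 0.29 to 0.37 for Slc3a2, -0.20 to -0.15 for Psat1 and 0.15 to 0.22 for Phgdh. For irradiated against control cells, 1 gene in place of 3 was called down under upper quartile and under total count scaling. For triol against irradiated cells, 0 of the 10 genes were called in any alternative, while calls over all genes moved to 19 with DESeq2, 36 with no filter, 22 with only the 2 groups and 22 with the replicate block, against 12. For triol against control cells 2 genes in place of 1 were called down with no filter, the other being Atf4 (-0.08, adjusted p = 0.0413 by edgeR). Leaving out 1 library at a time gave 3 to 4 genes up, 2 to 3 down and 4266 to 4991 calls over all genes for irradiated against control cells. It gave 0 to 0 up, 0 to 0 down and 6 to 19 calls for triol against irradiated cells, and 4 to 5 up, 1 to 2 down and 4134 to 4989 calls for triol against control cells. The cause of these shifts was not tested.

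The log2 differences that turned sign were of genes not called. In irradiated against control cells these were Chac1 (-0.01 without control replicate 3, -0.11 without irradiated replicate 1, within -0.11 to 0.44 over the libraries left out), Eif2ak1 (0.0451 without control replicate 2) and Psph (-0.0023 without irradiated replicate 3). In triol against irradiated cells they were Slc3a2 (0.003 without irradiated replicate 2, 0.0014 without triol replicate 1, within -0.0367 to 0.003) and Psat1 (0.0176 without irradiated replicate 3, 0.0066 without triol replicate 2, 0.0071 without triol replicate 3, within -0.0262 to 0.0176). In triol against control cells it was Eif2ak1 (0.0097 under upper quartile scaling, 0.0191 under total count scaling, 0.0862 without control replicate 2, within -0.0712 to 0.0862). Scaling moved the median log2 change of all genes in irradiated cells to 0.04 at most (total count), against 0.01. No effect shared by same-numbered libraries was seen, as their deviations correlated at -0.0522 to 0.0442, and the replicate block changed no call among the 10 genes. Whether the replicate numbers pair libraries by design is not given. Using the longest transcript in place of merged exons moved 18 of the 30 RPKM means by more than 1 SD, at most 1.77-fold (Ddit3). Depth limits Chac1 and Ddit4 most.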
